A study of Mus musculus with 6 samples.

Results

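Measured were 9 genes of the pluripotency and primordial germ cell programme in male gonads of mouse embryos at E14.5, namely Pou5f1, Sox2, Nanog, Dppa2, Dppa3, Dppa4, Dppa5a, Utf1 and Lin28a. They were chosen by name, with every array probe whose design accession maps to one of them, which gave 10 of the 41174 probes on the array, 2 of them for Dppa5a. All 10 were well above background on all 6 arrays, and so all 10 were among the 26712 probes tested. The study asked what a shortened NANOS2 protein can and cannot restore in germ cells that have no NANOS2, and the PGC genes are one of the groups it followed. Total RNA of whole gonads was hybridized with 1 dye, and 2 arrays each were made of 3 genotypes on a mixed ICR and N2 background. Nanos2+/- gonads carry 1 mutant allele, in which the lacZ reporter replaces Nanos2, and serve as controls. Nanos2-/- gonads carry it on both chromosomes, and Nanos2-/-_Tg+ gonads do so together with a transgene for 3×FLAG-tagged NANOS2-ΔN10, a protein without the N-terminal end, driven by the Nanos2 enhancer. No wild-type gonad was among the arrays, the transgene came from 1 mouse line, and the sources do not say whether 1 gonad or a pool of gonads went onto an array.

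Male germ cells of the mouse enter the gonad as primordial germ cells that still express the pluripotency network. In that network the transcription factors POU5F1, also called OCT4, and SOX2 bind DNA side by side and drive their own genes, Nanog and many others. Around the stage studied the germ cells of the testis stop dividing and turn this programme down, while NANOS2, an RNA-binding protein made in male germ cells, keeps them out of meiosis. In an array of whole gonads, fewer germ cells and less RNA of a gene per germ cell cannot be told apart.

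Values are log2 of the probe's signal after scaling every array to a common 50th percentile. They compare 1 probe between arrays, and not different probes with each other. The targeted gene was read first. Nanos2 stood at 9.42 and 10.78 in Nanos2+/-, and the transgenic gonads were at 13.28 and 14.25. Neither Nanos2-/- array showed it well above background, which puts it at least 89.7-fold below Nanos2+/- (limma adjusted p = 0.00198). Germ cells were present in all 6 samples: 7 of 7 measured germ cell markers were well above background on every array, and their summed scaled signal was 93451 and 115988 in Nanos2+/-, 75616 and 94642 in Nanos2-/- and 92843 and 88115 in Nanos2-/-_Tg+. Among them the germ cell helicase gene Ddx4 lay between 13.97 and 14.34 throughout, and the set as a whole was less level. Against Nanos2+/-, the median difference of the 7 markers was -0.34 in Nanos2-/-, with 2 of 7 above 0. It was -0.09 in Nanos2-/-_Tg+, with 3 of 7 above 0. The medians over all probes tested were -0.04 and -0.01. The pair of Nanos2+/- arrays had a slide to itself, so that genotype and slide cannot be told apart in any comparison with Nanos2+/-, whereas Nanos2-/- and Nanos2-/-_Tg+ shared a slide.

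**Figure D1:**
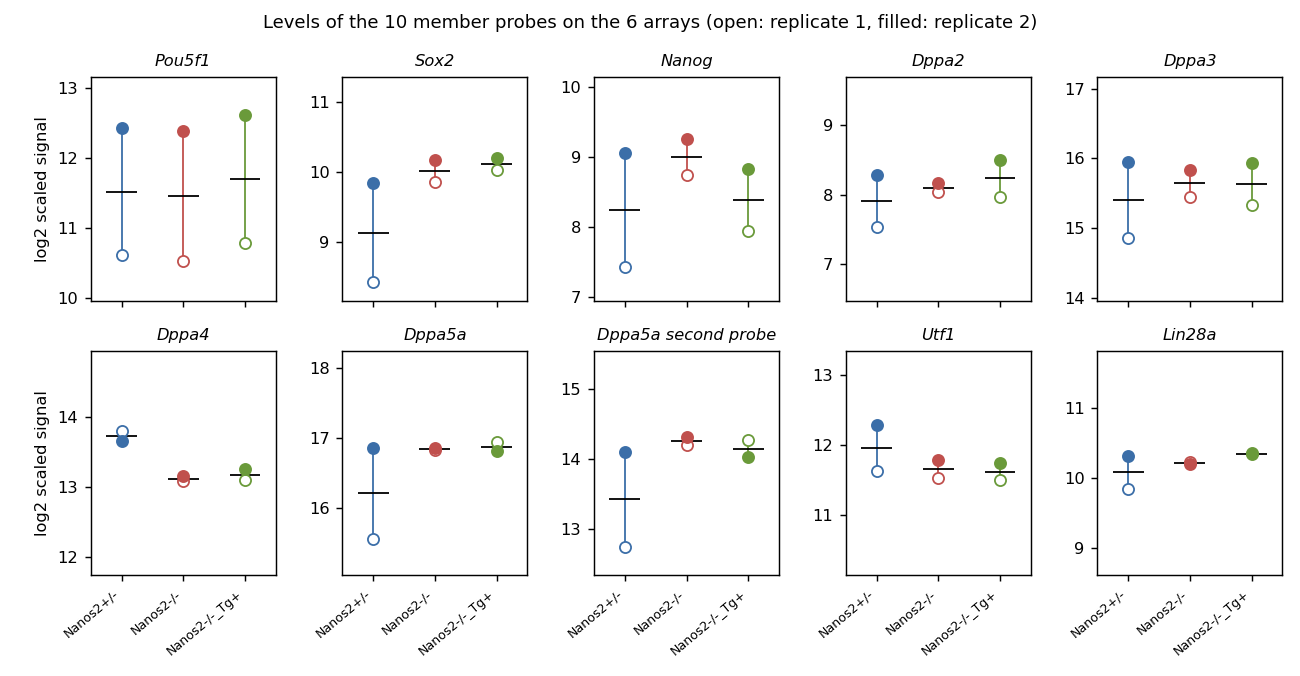
Levels of the 10 member probes on the 6 arrays. Each panel is 1 probe, the vertical axis is the log2 scaled signal, open circles are replicate 1, filled circles replicate 2, and black lines the mean of the 2 arrays of a genotype. Replicate 1 of Nanos2+/- is the lowest of the 6 arrays for 7 of the 10 probes (the share of all probes was not counted). Pou5f1 splits by replicate number in all 3 genotypes, and Dppa4 is highest in Nanos2+/-.

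The core factors of the network were not called changed in any comparison. Pou5f1 (chromosome 17, 35506032 to 35510777, GRCm38.p6) encodes OCT4, the POU domain factor that pluripotent cells and primordial germ cells need. Its log2 level was 10.62 and 12.43 in Nanos2+/-, 10.53 and 12.39 in Nanos2-/-, and 10.78 and 12.61 in Nanos2-/-_Tg+. The 3 genotypes overlapped fully, and within each of them replicate 2 was far above replicate 1. Nanos2-/- was 0.06 below Nanos2+/- (SE 0.84, 95% interval -2.01 to 1.88, adjusted p = 0.995 by limma over all probes tested). RefSeq lists 7 pseudogenes of Pou5f1, 5 of them transcribed, and whether the probe also takes up their RNA was not tested.

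Sox2 (chromosome 3, 34649995 to 34652461) encodes the HMG box partner of OCT4. It was at 8.43 and 9.83 in Nanos2+/-, at 9.86 and 10.18 in Nanos2-/-, and at 10.03 and 10.20 in Nanos2-/-_Tg+. All 4 arrays without intact Nanos2 were above both Nanos2+/- arrays, but the nearest pair was 9.83 and 9.86, and replicate 1 of Nanos2+/- stood apart from the other 5 arrays. The mean was 0.89 higher in Nanos2-/- (1.85-fold, SE 0.41, adjusted p = 0.596) and 0.98 higher in Nanos2-/-_Tg+ (1.98-fold, adjusted p = 0.421), and both fell short of the 2-fold limit. Without replicate 1 of Nanos2+/- these differences were 0.18 and 0.28, and without its replicate 2 they were 1.59 and 1.69. Sox2 is also used outside germ cells, in neural crest and glia. Of the 4 markers of those cells that could be tested, Foxd3, a neural crest and pluripotency factor, was at 5.54 and 6.0 in Nanos2+/- and between 6.82 and 7.14 on the other 4 arrays (adjusted p = 0.221 and 0.129). The summed signal of the 4 markers was 912 and 1120 in Nanos2+/- and between 885 and 1087 elsewhere. Their part in the Sox2 values was not tested.

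Nanog (chromosome 6, 122707489 to 122714633) encodes the homeodomain factor that completes the core. Its level was 7.43 and 9.05 in Nanos2+/-, 8.74 and 9.25 in Nanos2-/-, and 7.94 and 8.83 in Nanos2-/-_Tg+. Replicate 2 of Nanos2+/- lay inside the range of the Nanos2-/- arrays. The mean was 0.76 higher in Nanos2-/- than in Nanos2+/- (SE 0.52, adjusted p = 0.745) and 0.14 higher in Nanos2-/-_Tg+ (adjusted p = 0.952). Between the genotypes that shared a slide it was 0.61 lower with the transgene (95% interval -1.83 to 0.61), the widest gap of any member in that comparison. Without replicate 1 of Nanos2-/-_Tg+ this was -0.17, and without its replicate 2 it was -1.05. RefSeq lists 2 pseudogenes of Nanog.

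The promoters of these 3 genes are shown because the members feed on one another: the products of Pou5f1 and Sox2 bind the promoter of Nanog. The RefSeq-based table held promoters of 5 of the 9 members, and the 250 bases before the start site were searched on both strands for ATGCAAA (the core of the octamer that OCT4 reads), ACAATG (a SOX core), GGGCGG (a GC box) and AGGTCA (a nuclear receptor core). Matched letters are in capitals, and each line runs 5′ to 3′ on the strand of the gene, here the plus strand of GRCm38.p6, at chr6:122707315-122707564 for Nanog (the second of its 2 listed starts), chr17:35505782-35506031 for Pou5f1 (the first of 2) and chr3:34649745-34649994 for Sox2.
Nanog: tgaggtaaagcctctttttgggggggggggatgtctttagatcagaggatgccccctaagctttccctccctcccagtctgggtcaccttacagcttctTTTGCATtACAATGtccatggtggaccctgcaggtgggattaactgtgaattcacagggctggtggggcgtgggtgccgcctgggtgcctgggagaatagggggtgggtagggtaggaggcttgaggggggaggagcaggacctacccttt
Pou5f1: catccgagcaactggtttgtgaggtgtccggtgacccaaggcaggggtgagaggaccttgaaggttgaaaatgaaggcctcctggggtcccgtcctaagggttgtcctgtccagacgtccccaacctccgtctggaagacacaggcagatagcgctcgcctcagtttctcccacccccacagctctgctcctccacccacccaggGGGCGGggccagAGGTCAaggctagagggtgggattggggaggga
Sox2: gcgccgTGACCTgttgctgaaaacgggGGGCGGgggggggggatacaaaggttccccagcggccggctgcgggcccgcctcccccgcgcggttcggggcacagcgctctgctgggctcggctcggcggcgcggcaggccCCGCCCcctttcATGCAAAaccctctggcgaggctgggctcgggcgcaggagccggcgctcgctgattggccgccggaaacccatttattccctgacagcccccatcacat
In Nanog the octamer core, as its reverse complement TTTGCAT, and the SOX core were separated by 1 base and lay 151 to 138 bases before the start. Of all 32851 promoters, 4.12% held the octamer core, 10.7% the SOX core and 0.642% both. The Sox2 promoter held an octamer core 99 to 93 bases before its start, and the SOX core was not among its 250 bases. The Pou5f1 promoter shown held a GC box, a motif of 32.7% of all promoters, and a nuclear receptor core, a motif of 14%. Before the second Pou5f1 start, which is not shown, a SOX core lay at 158 to 153 bases. Before the first Nanog start, also not shown, the octamer and SOX cores lay at 75 to 62 bases, and a nuclear receptor core was present. A match is a string of letters and not a measured binding site. In the arrays, replicate 1 of Nanos2+/- was the lowest for 7 of the 10 member probes, with Nanog and Sox2 among them. The share of all probes that were lowest on that array was not counted. Pou5f1 was lowest in replicate 1 of Nanos2-/-, at 10.53 beside 10.62 in replicate 1 of Nanos2+/-. Whether the motifs bear on these levels was not tested.

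Dppa2 and Dppa4 lie near each other on chromosome 16 (48310274 to 48319513 and 48283735 to 48294292) and encode SAP domain proteins that act as a pair on chromatin. Dppa2 was at 7.53 and 8.28 in Nanos2+/-, 8.04 and 8.16 in Nanos2-/-, and 7.96 and 8.50 in Nanos2-/-_Tg+. All 3 genotypes overlapped, and the differences from Nanos2+/- were 0.19 and 0.32 (SE 0.29). Dppa4 was at 13.80 and 13.66 in Nanos2+/-, 13.08 and 13.15 in Nanos2-/-, and 13.10 and 13.25 in Nanos2-/-_Tg+. The Nanos2+/- arrays were both above the other 4, and the replicates of each genotype were close. Dppa4 was 0.61 lower in Nanos2-/- (1.53-fold, SE 0.18, 95% interval -1.03 to -0.19) and 0.55 lower in Nanos2-/-_Tg+ (1.47-fold, 95% interval -0.98 to -0.13). The unadjusted limma p-values were 0.0107 and 0.0171, the lowest of any member in these comparisons, and the adjusted ones 0.359 and 0.294. Leaving out any 1 array gave values from -0.68 to -0.54 and from -0.62 to -0.48. With the arrays scaled to the germ cell markers, the differences of Dppa4 were -0.38 and -0.43, beside a median of all probes of 0.20 and 0.11. The sign depended on the background correction: with normexp, an alternative added after the data had been seen, Dppa4 was 0.41 higher in both, while the median of all probes stood at 0.56 and 0.52 in place of -0.04 and -0.01, so that Dppa4 stood 0.15 and 0.11 below it.

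Dppa3 (Stella or PGC7; chromosome 6, 122626424 to 122630271) protects methylated DNA in the zygote and marks primordial germ cells from early on. It was at 14.86 and 15.95 in Nanos2+/-, 15.45 and 15.84 in Nanos2-/-, and 15.34 and 15.93 in Nanos2-/-_Tg+. The Nanos2+/- arrays were the lowest and the highest of the 6, with the other 4 between them. Its differences from Nanos2+/- were 0.24 and 0.23 (SE 0.38, adjusted p = 0.903 and 0.877).

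Dppa5a (Esg1; chromosome 9, 78367052 to 78368199) encodes a KH domain RNA-binding protein of pluripotent cells, and was read by 2 probes. The brighter was at 15.57 and 16.86 in Nanos2+/-, 16.83 and 16.86 in Nanos2-/-, and 16.95 and 16.81 in Nanos2-/-_Tg+. The second was at 12.74 and 14.10, at 14.20 and 14.31, and at 14.26 and 14.02. In both, 5 arrays lay close together and replicate 1 of Nanos2+/- was more than 1 log2 unit below the nearest of them. Nanos2-/- was 0.64 above Nanos2+/- by the first probe (SE 0.38, adjusted p = 0.697) and 0.84 by the second (SE 0.40, adjusted p = 0.602). Nanos2-/-_Tg+ was 0.67 and 0.72 above. Without replicate 1 of Nanos2+/- the first probe gave -0.01 and 0.02. No spot was saturated on any array. RefSeq lists 2 pseudogenes of Dppa5a and 1 of Dppa3.

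Utf1 (chromosome 7, 139943856 to 139945112) encodes a chromatin protein of pluripotent cells and is a target of OCT4 and SOX2. It was at 11.62 and 12.29 in Nanos2+/-, 11.52 and 11.78 in Nanos2-/-, and 11.50 and 11.74 in Nanos2-/-_Tg+. Replicate 2 of Nanos2+/- was the highest array, and replicate 1 lay among the others. Utf1 was 0.31 and 0.34 lower than in Nanos2+/- (SE 0.26, adjusted p = 0.796 and 0.691). Lin28a (chromosome 4, 134003330 to 134019196) encodes the RNA-binding protein that blocks the maturation of let-7 and is needed for primordial germ cells to form. It was at 9.84 and 10.32 in Nanos2+/-, 10.23 and 10.20 in Nanos2-/-, and 10.36 and 10.34 in Nanos2-/-_Tg+. With the transgene it was 0.14 higher than in Nanos2-/- (SE 0.21, 95% interval -0.36 to 0.63), with both arrays above both. The replicates of these genotypes were within 0.03 of each other.

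**Figure D2:**
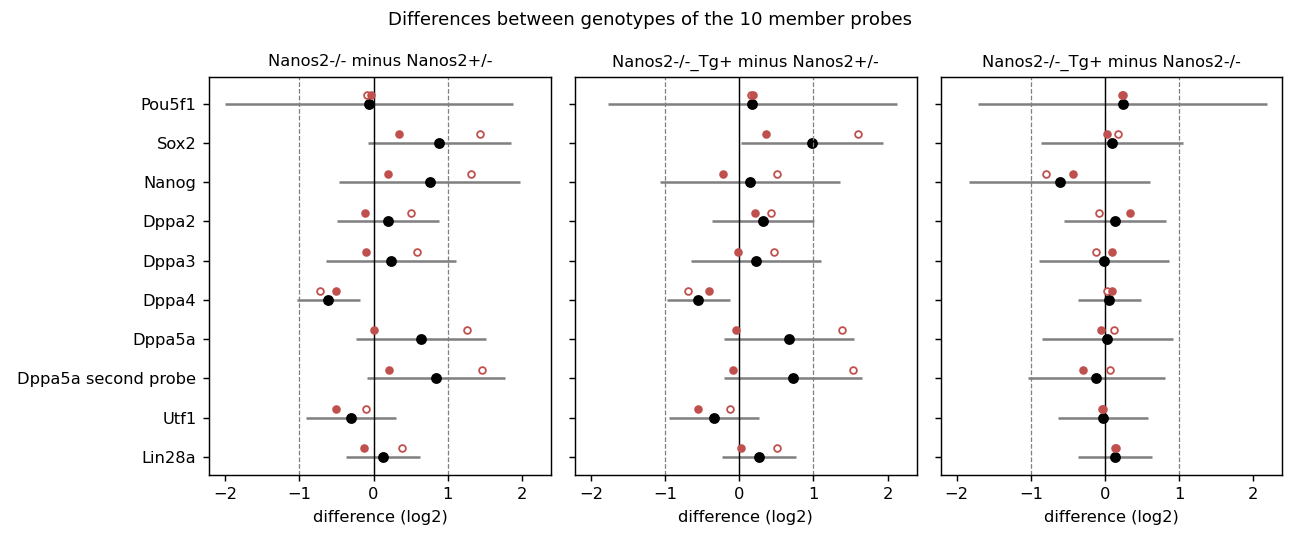
Differences between genotypes of the 10 member probes, in log2 units. Black points are the differences of the means, grey lines their 95% intervals from limma over all 6 arrays, open and filled red circles the differences between arrays numbered 1 and 2, and dashed lines the 2-fold limit. No black point reaches the 2-fold limit, and the intervals of Dppa4 in the first 2 panels and of Sox2 in the second leave out 0.

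Across the members, 0 of 10 probes were called (adjusted p under 0.05 and at least 2-fold) in Nanos2-/- against Nanos2+/-, where 0.0674% of the 26711 probes with a p were called. The count was also 0 of 10 in Nanos2-/-_Tg+ against Nanos2+/-, where 0.105% were called, and in Nanos2-/-_Tg+ against Nanos2-/-, where 0.0187% were. At an unadjusted p under 0.05 the members passing were 1, 2 and 0 in that order, and none of them was also 2-fold apart. The t-test of the study's methods, with its unadjusted threshold and the 2-fold limit, called 0 members in every comparison. Taking each gene by its brighter probe, both Nanos2-/- arrays were above both Nanos2+/- arrays for 1 gene, Sox2, of 9 (14.3% of all tested probes) and below for 1, Dppa4 (21.7%). The second probe of Dppa5a, not counted here, was also higher on both Nanos2-/- arrays, unlike the brighter one. For Nanos2-/-_Tg+ against Nanos2+/- the counts were 2 above, Sox2 and Lin28a (18.6% of all), and 1 below, Dppa4 (20.3%). For Nanos2-/-_Tg+ against Nanos2-/- they were 1 above, Lin28a (20% of all), and 0 below (11.4%). The median difference over the 9 genes was 0.19, 0.23 and 0.06, beside -0.04, -0.01 and 0.03 over all probes tested. Without replicate 1 of Nanos2+/- the first 2 medians turned to -0.18 and -0.31, and without its replicate 2 they were 0.78 and 0.77. With 2 arrays against 2, the smallest two-sided p that an exact test of a single probe can reach is 0.333, and the p-values given here measure the spread between these arrays, since the labels do not say that replicates came from separate animals.

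For every member except Dppa4, the Nanos2+/- replicates lay further apart than the genotype means. The Nanos2-/- replicates lay closer for some members. Sox2 differed by 0.32 between them and by 0.89 from Nanos2+/-, and Dppa5a by 0.03 and 0.64. In Nanos2+/-, replicate 2 exceeded replicate 1 for 8 of 9 members, with a median of 1.08. Over 26699 probes the median was 0.23 and the lower quartile -0.05, so that most of all probes were also higher in replicate 2. Of the members, 5 were at least 2-fold apart, where 4.44% of all probes were. Under quantile normalization 3 members were, under the 75th percentile 4 and with normexp 9. The median over all probes was then 0.03, 0.008 and 1.03, and the share of all probes 2-fold apart was not counted. With normexp the median of all probes was itself past the 2-fold limit, so that count is not read as particular to the members. The 5 at the 50th percentile were Pou5f1, Nanog, Sox2, Dppa5a and Dppa3, by 1.81, 1.62, 1.41, 1.29 and 1.08. Dppa4 went the other way, by -0.14. In Nanos2-/- the median over members was 0.26 against 0.11, with 1 of 9 at least 2-fold apart (2.13% of all), and in Nanos2-/-_Tg+ it was 0.24 against 0.05, with 1 of 9 (2.9% of all). In both that 1 gene was Pou5f1.

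**Figure D3:**
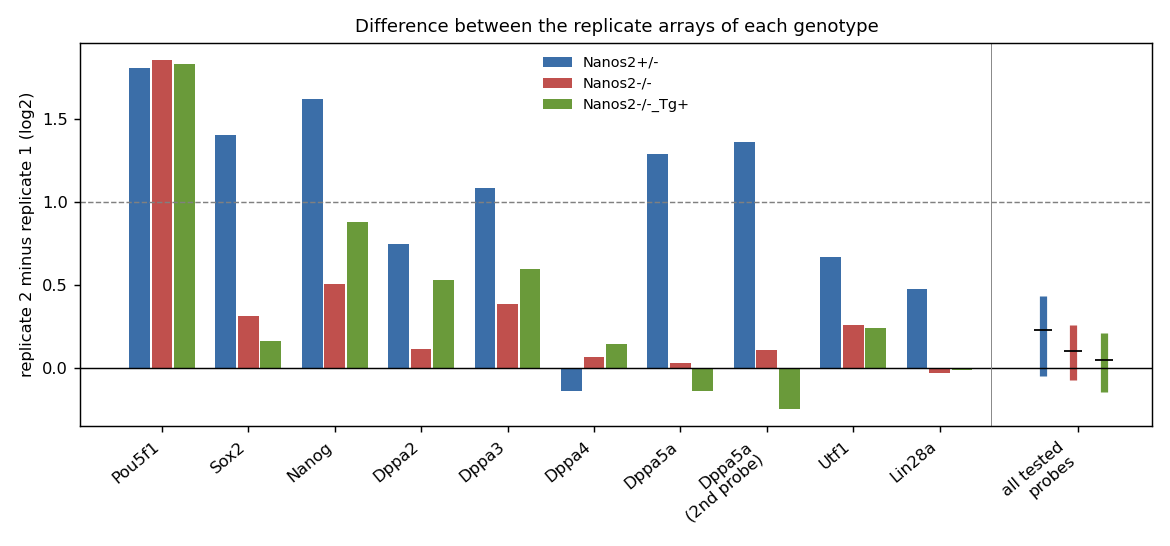
Replicate 2 minus replicate 1 of each member probe, in log2 units, by genotype. Bars are single differences without error, the dashed line is 2-fold, and at the right the thick lines span the lower to the upper quartile of all 26699 tested probes with the median as a black mark. The Pou5f1 bars are of nearly the same height in all 3 genotypes, and for most other members the Nanos2+/- bar is the tallest.

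Pou5f1 was the member with the most even split. Replicate 2 was above replicate 1 by 1.81 in Nanos2+/-, 1.86 in Nanos2-/- and 1.83 in Nanos2-/-_Tg+, or 3.50-, 3.62- and 3.56-fold. In each genotype under 1% of tested probes were as far apart, at 0.655, 0.296 and 0.453%. Replicate 2 was at least 2-fold above replicate 1 in all 3 genotypes for 14 probes (0.0524% of all), and Pou5f1 was the 1 member among them. The others included Trh (thyrotropin-releasing hormone) and Mdfi (an inhibitor of myogenic factors, with 2 probes). For 20 probes replicate 2 was at least 2-fold lower in all 3. Arrays of the same number differed little between genotypes for Pou5f1: Nanos2-/- minus Nanos2+/- was -0.08 for arrays numbered 1 and -0.04 for arrays numbered 2, and Nanos2-/-_Tg+ minus Nanos2+/- was 0.16 and 0.19. The labels do not say what arrays of the same number share. Nanog kept the same sign in all 3 genotypes at 1.62, 0.51 and 0.88, as did Dppa3 at 1.08, 0.39 and 0.60 and Dppa2 at 0.75, 0.12 and 0.53, while Dppa5a did not, at 1.29, 0.03 and -0.14.

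**Figure D4:**
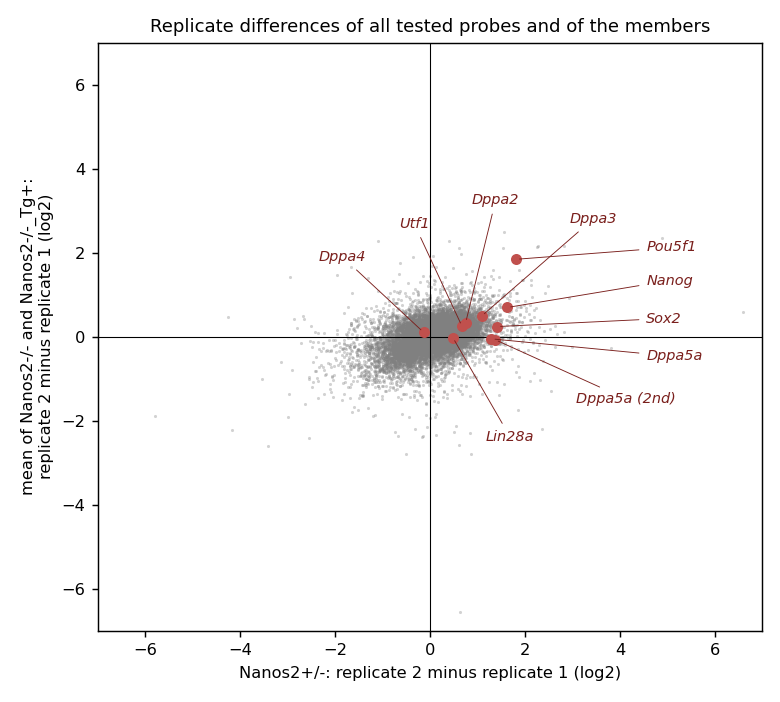
Replicate 2 minus replicate 1 in Nanos2+/- (horizontal axis) against the mean of the same difference in Nanos2-/- and Nanos2-/-_Tg+ (vertical axis), both in log2 units. Grey points are all 26699 tested probes with values on every array, and red points the 10 member probes. Pou5f1 lies high on both axes, while Sox2 and both probes of Dppa5a lie far to the right and near 0 on the vertical axis.

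Other measures moved between the replicates too. The germ cell markers had median replicate differences of 0.16, 0.32 and -0.09 in Nanos2+/-, Nanos2-/- and Nanos2-/-_Tg+, with 0 of 7 at least 2-fold apart, and among them Dazl was at 12.80 and 13.74 and Mael at 14.75 and 14.45 in Nanos2+/-. Nanos2 itself differed by more than 1 log2 unit between the Nanos2+/- replicates. Of 5 blood markers the medians were 1.46, -0.02 and 1.54, so that they were low in replicate 1 of Nanos2+/- and of Nanos2-/-_Tg+ and alike in Nanos2-/-, where Pou5f1 differed by 1.86. Their summed signal was 14869 and 35670 in Nanos2+/-, 18721 and 21045 in Nanos2-/- and 15491 and 35786 in Nanos2-/-_Tg+. The part of these in the members' values was not tested. With the arrays scaled to the germ cell markers in place of the 50th percentile, the replicate difference of Pou5f1 was 1.57, 1.50 and 1.83 and the median over members 0.84, -0.10 and 0.24.

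Genes that work with the members were read from 4 lists. Of 20 other pluripotency network genes 18 were matched to a probe and all 18 were tested, and 0 were called in any comparison. Their median difference from Nanos2+/- was 0.26 in Nanos2-/- and 0.19 in Nanos2-/-_Tg+, with 13 and 11 of 18 above 0, and it became -0.11 and -0.37 without replicate 1 of Nanos2+/- and 0.80 and 0.47 without its replicate 2. In Nanos2+/- replicate 2 exceeded replicate 1 for 17 of 18, as it did for most of all probes. The median was 0.67 beside 0.23 over all, and 8 were at least 2-fold apart, where 4.44% of all were. Tdh, which encodes the threonine dehydrogenase of pluripotent mouse cells, was at 10.71 and 12.91 in Nanos2+/-, 12.90 and 13.38 in Nanos2-/-, and 12.03 and 12.49 in Nanos2-/-_Tg+, so that only 1 array stood apart. Fbxo15, a known target of OCT4 and SOX2, went the other way, with 11.23 and 11.45 in Nanos2+/-, 10.44 and 10.62 in Nanos2-/-, and 9.87 and 10.67 in Nanos2-/-_Tg+. It was 0.81 and 1.07 lower than in Nanos2+/- (SE 0.28, adjusted p = 0.430 and 0.202), with no overlap. Gbx2, a homeobox gene, was dim, and was well above background on 0 of 2 Nanos2+/- arrays, 1 of 2 Nanos2-/- arrays and 2 of 2 with the transgene. It met the filter only through the last of these, so its difference is not read as a result, and its sign turned with normexp.

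Of 14 other primordial germ cell genes 13 were tested, and 0 were called in any comparison. Dnd1, which encodes an RNA-binding partner of NANOS2 that germ cells need to survive, was at 13.54 and 13.76 in Nanos2+/-, 12.75 and 12.92 in Nanos2-/-, and 12.88 and 12.79 in Nanos2-/-_Tg+. The groups did not overlap and the replicates were close, as for Dppa4. It was 0.81 and 0.82 lower than in Nanos2+/- (SE 0.19, adjusted p = 0.257 and 0.176). With normexp Dnd1 and Fbxo15 in Nanos2-/- stood 0.17 and 0.18 above Nanos2+/-, again below the median of all probes. Nanos3, the paralogue that primordial germ cells need, was at 9.82 and 10.96, at 10.70 and 11.11, and at 11.27 and 11.01. Alpl, the alkaline phosphatase by which primordial germ cells are stained, was at 11.82 and 12.62, at 12.31 and 12.83, and at 12.61 and 12.98. Fut4, whose enzyme makes the SSEA1 antigen, was at 8.04 and 8.65, at 8.57 and 8.92, and at 8.58 and 8.73. In all 3 the lowest of the 6 arrays was replicate 1 of Nanos2+/-. The list had 7 and 6 of 13 genes above 0 against Nanos2+/-, with medians of 0.05 and -0.13. These were -0.20 and -0.34 without replicate 1 of Nanos2+/- and 0.36 and 0.23 without its replicate 2.

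Around Lin28a, 9 of 10 genes of the LIN28 and let-7 axis were tested and 0 were called. Mycn, which let-7 represses, was at 11.47 and 12.10 in Nanos2+/-, 12.21 and 12.47 in Nanos2-/-, and 12.25 and 12.69 in Nanos2-/-_Tg+, without overlap (0.55 and 0.68 higher, SE 0.27, adjusted p = 0.610 and 0.391). Lin28b, the paralogue of Lin28a, was 0.30 and 0.10 lower, Igf2bp1, an RNA-binding protein gene that let-7 represses, was 0.26 and 0.32 lower, and Dis3l2, whose nuclease degrades tailed let-7 precursors, was 0.16 and 0.25 higher. Replicate 2 of Nanos2+/- exceeded replicate 1 for all 9, by a median of 0.37. The median over all probes was 0.23, and most of them were higher in replicate 2 as well. Of 10 cleavage-stage genes that depend on DPPA2 and DPPA4, 6 were matched and 3 could be tested, with 0 called. Zscan4c, which marks the cleavage-stage programme, was dim: 5.02 and 4.77 in Nanos2+/-, while neither Nanos2-/- array and 1 of 2 with the transgene rose well above background. It met the filter only through Nanos2+/-, where it is high, so its difference is not read as a result, and this gene has near-identical copies that a probe may not separate. Usp17la was above background on 1 Nanos2+/- and 1 Nanos2-/- array and on both arrays with the transgene. It met the filter only through the last of these, so its difference is not read as a result. Eif1a was 0.11 and 0.32 higher (SE 0.25).

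**Figure D5:**
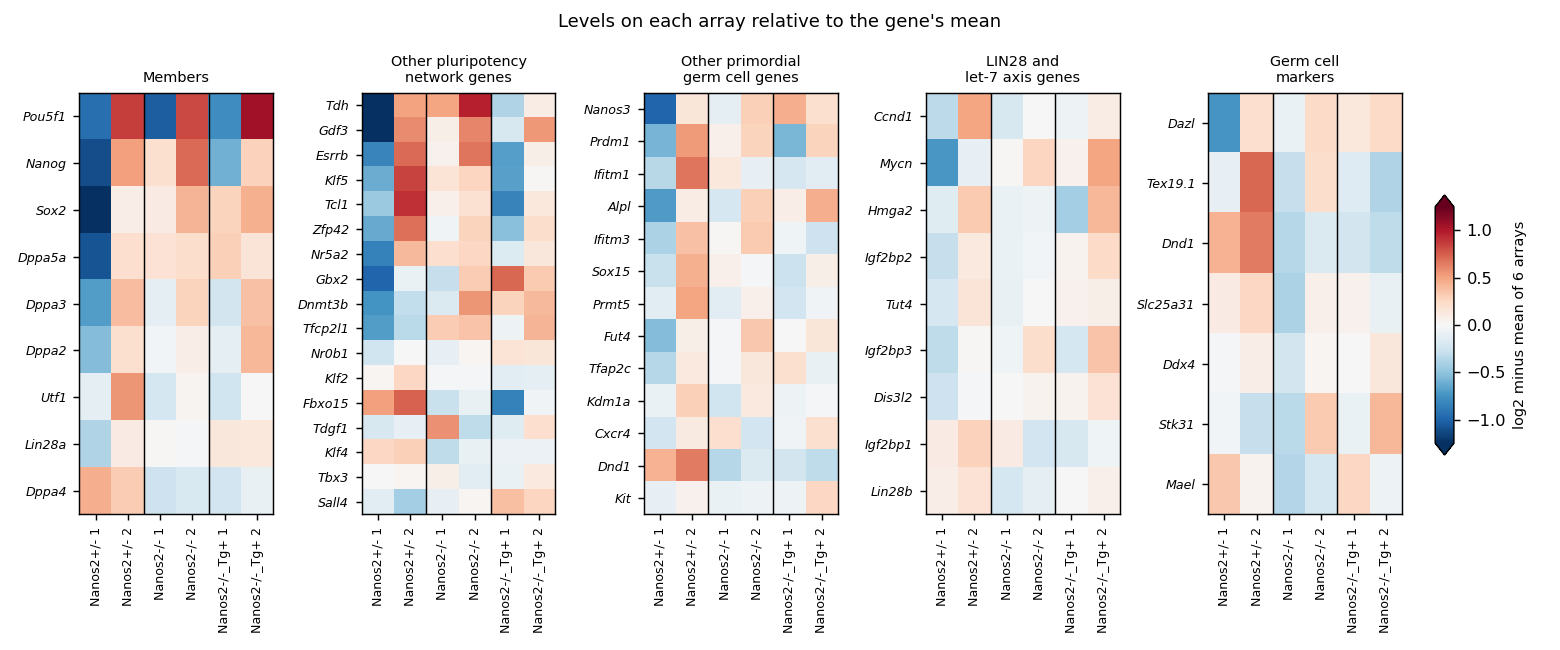
Levels on each array minus the gene's mean over the 6 arrays, in log2 units (red above, blue below). Genes of a panel are sorted by the replicate difference in Nanos2+/-, the columns are replicates 1 and 2 of each genotype, and black lines part the genotypes. Of the other pluripotency genes 17 are drawn. The first column is blue for most members and other pluripotency genes, and Dppa4, Fbxo15 and Dnd1 are red in both Nanos2+/- columns.

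The members did not share 1 course over the arrays. Averaged over the 9 genes, each centred on its own mean, the level was -0.64 and 0.36 in Nanos2+/-, -0.13 and 0.26 in Nanos2-/-, and -0.16 and 0.31 in Nanos2-/-_Tg+. Pearson's r with this average, to which each gene contributes, is given as a description over 6 arrays of the same tissue. The Nanos2+/- pair had a slide to itself. The r was 1.00 for Dppa3, 0.94 for Dppa2, 0.91 for Nanog, 0.88 for Pou5f1, 0.83 for Sox2, 0.78 for Dppa5a, 0.77 for Lin28a, 0.62 for Utf1 and -0.31 for Dppa4. Sox2, Dppa5a and Lin28a were the closest to one another, with r from 0.92 to 0.97 between pairs. Among 1419 other genes that varied at least as much, the 6 nearest to the average by root mean square distance were Fzd10 (a Wnt receptor, 0.06 log2 units), Tdrd12 (a piRNA pathway protein of germ cells, 0.07), Nfatc2ip (0.08), Gtsf1l (0.10), Shtn1 (0.11) and Elavl2 (an RNA-binding protein, 0.12). Of these Tdrd12 ran -0.74 and 0.32 in Nanos2+/-, -0.06 and 0.27 in Nanos2-/-, and -0.06 and 0.29 in Nanos2-/-_Tg+.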

How the data were processed

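Total RNA of whole E14.5 male gonads (0.20 µg per array) had been labelled with Cy3 and hybridized to Agilent whole mouse genome arrays, 2 per genotype. Genotype and replicate number were taken from the sample labels. The deposited scanner files hold, for each of 45018 spots, the background-subtracted signal intensity that the authors obtained with Agilent Feature Extraction, version 9.5 in the submitters' processing notes. The deposited value table holds the same intensity, to within 0.497%. The methods state that the authors then set a minimum of 5, normalized every chip to its 50th percentile and every gene to its median. Here control and outlier spots were left out, each array was scaled to the common 50th percentile (factors 0.878 to 1.28), a floor of 5 was set, and log2 values were averaged over the spots of a probe. Between 64.1 and 66.7% of probes per array were well above background, and the number of arrays limits the precision. A probe was tested when well above background on both arrays of a genotype.

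Differences were fitted over all 6 arrays with limma 3.58.1 (lmFit and eBayes, R 4.3.3) and Benjamini-Hochberg adjusted over all probes tested. The fit was tested on simulated data. Alternatives were other scalings, floors, filters, a background correction, a block for replicate number, a fit of the 4 arrays compared, the methods' t-test and leaving out each array. Probes were named through the accession of their design in the RefSeq gene table of GRCm38.p6, which matched 23374 probes. Figures were drawn with Python 3.11.15, pandas 2.3.3, numpy 2.4.6 and matplotlib 3.10.9. Where a group was dim, the bound was taken against the lowest signal well above background. Named are all members with every probe, from each of 4 lists up to 4 genes with the largest difference from Nanos2+/- in either comparison (1 such gene is not reported here), and the 6 genes most like the members' average. Other genes, such as Foxd3, Trh, Mdfi and single markers, were chosen after their values were seen. The members and lists were chosen with earlier results of these data known. Fgf4, L1td1, Prdm14, Trim71, Zscan4d, Zscan4f, Gm4340 and Dux were matched to no probe and are not analysed here.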

Additional observations from a re-analysis of the deposited data

How the results depend on the processing

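Under every alternative run, 0 of the 10 member probes were called in each comparison, and among the member differences given above the lowest adjusted limma p was 0.0881 (Sox2 with the transgene, without replicate 2 of Nanos2+/-). The counts over all probes moved more. In the order Nanos2-/- against Nanos2+/-, Nanos2-/-_Tg+ against Nanos2+/- and Nanos2-/-_Tg+ against Nanos2-/-, they were 18 (5 higher), 28 (8 higher) and 5 (4 higher), with 591, 745 and 174 at an unadjusted p under 0.05 and 2-fold. Scaling to the 75th percentile gave 5 (0 higher), 10 (5 higher) and 4, quantile normalization 5 (0 higher), 10 (4 higher) and 4, and scaling to the germ cell markers 14 (6 higher), 23 (13 higher) and 6 (4 higher). A floor of 20 gave 0, 0 and 0, probes above background on all 6 arrays 1, 5 and 1, no filter 2, 4 and 0, and only the 4 arrays compared 38, 85 and 1. The t-test of the methods, which takes each probe alone, gave 153, 234 and 40 unadjusted with 2-fold and 0, 0 and 0 after Benjamini-Hochberg adjustment. Leaving out 1 array in turn gave 13 to 47, 21 to 85 and 1 to 29, the highest in each without replicate 1 of Nanos2-/- and the lowest without replicate 1 of Nanos2+/-. A lone array was then assumed to vary like the other genotypes.

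Replicate numbers are shared by label alone, and replicate differences correlated at r = 0.355, 0.313 and 0.259 across probes between genotypes. A fit that holds this number as a replicate block gave counts of 18, 145 and 4, and it changed no call of a gene named here apart from Nanos2 with the transgene against Nanos2+/- (adjusted p = 0.0323 in place of 0.0564).

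Leaving out 1 array turned the sign of several members. Against Nanos2+/-, Nanos2-/- ranged over -0.99 to 0.87 for Pou5f1, -0.055 to 1.57 for Nanog, -0.18 to 0.57 for Dppa2, -0.30 to 0.78 for Dppa3, -0.010 to 1.28 for Dppa5a, -0.11 to 0.37 for Lin28a, -0.64 to 0.028 for Utf1, -0.19 to 0.42 for Eif1a and -0.18 to 0.78 for the median over members. Nanos2-/-_Tg+ ranged over -0.74 to 1.09 for Pou5f1, -0.67 to 0.95 for Nanog, -0.050 to 0.70 for Dppa2, and -0.31 to 0.77 for Dppa3 and for the median. Pou5f1 in Nanos2-/- turned to 0.00801 with quantile normalization and 0.17 with scaling to the germ cell markers, and Lin28b with the transgene to 0.027 with the latter, which moved the median of all probes to 0.20 and 0.11.

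Normexp on the mean signal was planned and not run, since that column was not among those used here. Normexp on the median signal was chosen after seeing the data and gave 0, 0 and 0 probes called. It moved the median over members to 0.95 and 0.99 and their replicate difference in Nanos2+/- to 1.90, beside a median of 1.03 over all probes. Signs that turned with it in Nanos2-/- were Pou5f1 (0.83), Dppa4 (0.41), Utf1 (0.67), Igf2bp1 (0.61), Lin28b (0.35), Fbxo15 (0.18) and Dnd1 (0.17), and with the transgene Dppa4 (0.41), Utf1 (0.58), Igf2bp1 (0.48), Lin28b (0.50), Gbx2 (-0.20) and Dnd1 (0.12), while the median of all probes rose to 0.56 and 0.52. The cause was not tested. Members were above background throughout, so dimness limits only Gbx2, Usp17la and Zscan4c.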
